A study of Mus musculus with 48 samples.

Results

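Ribosome profiling (Ribo-seq) sequences the short stretches of mRNA that a translating ribosome shields from a nuclease, so the number of these footprints in a gene follows both the amount of its mRNA and how densely ribosomes load it. Dividing the footprints by RNA-seq reads of the same gene gives a ratio that is often called translational efficiency. In embryonic stem cells, as in other cells, mRNAs are known to differ in this ratio through short open reading frames before the coding sequence, through oligopyrimidine 5′ ends and iron-responsive elements, and through translation at the endoplasmic reticulum or inside mitochondria.

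The ratio was examined in wild-type (WT) mouse embryonic stem cells for every protein-coding gene with a mean of at least 1 CPM (reads of a gene scaled to a common library total) in the WT RNA-seq libraries. These were 11843 of the 21899 protein-coding genes and of the 55335 genes of any kind in the tables. WT here means untreated cells of a hybrid 129-C57BL/6 line that carried a conditional *Nrde2* allele and, per the study's methods, a heterozygous Cre-ERT2 insertion at *Rosa26*, and that grew in serum with LIF and 2i. The study made its inducible *Nrde2* knockout in a line that also expressed the bacterial ligase BirA. The label of the Ribo-seq libraries gives their genotype only as wt. There were 2 Ribo-seq libraries and 2 RNA-seq experiments of 2 libraries each, the second being the untreated arm of a cycloheximide experiment. The labels number the libraries of a group as replicates without saying that they came from separate cultures. The p-values and standard errors (SE) measure only the spread between libraries of the same group. Those of the ratio leave out the difference between the 2 RNA-seq experiments. RNA-seq was of ribosome-depleted total RNA from whole cells.

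The 10 markers of mouse embryonic stem cells were all above 1 CPM in both assays, with a summed level of 2908 to 2993 normalised CPM in Ribo-seq and 5513 to 6299 in RNA-seq. The summed levels of 10 fibroblast markers were 13.5 to 14.6 and 7.37 to 23.6, with *Dcn* and *Fap* at 0 in both assays, those of 9 primitive endoderm markers 4.47 to 5.77 and 9.56 to 14.3, and those of 10 germ layer and trophoblast markers 27.1 to 30.4 and 110 to 137. The Ribo-seq libraries held 4972570 and 5035940 reads in genes and the RNA-seq libraries 28878024 to 33814363. A typical member had 101.5 Ribo-seq reads and 1003.5 RNA-seq reads per library (medians over the members), and 564 members had fewer than 10 Ribo-seq reads in both libraries together.

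In reads of chromosome Y the Ribo-seq libraries stood apart from the RNA-seq libraries. The study describes its parental cells as male, and genes of chromosome Y together held 226 to 278 CPM of the reads in genes in the 4 WT RNA-seq libraries, but 6.55 and 8.25 CPM in the WT Ribo-seq libraries. The *Nrde2*-KO libraries showed the same division, with 249 to 281 in RNA-seq and 8.15 and 9.21 in Ribo-seq. *Ddx3y*, an RNA helicase gene, had 110, 124, 90.6 and 99.7 normalised CPM in the RNA-seq libraries and 1 read in one Ribo-seq library and 0 in the other. *Eif2s3y*, which encodes a subunit of initiation factor eIF2, had 49.7, 55.4, 47.7 and 52.6 normalised CPM of RNA and no Ribo-seq read. With nothing added to the CPM, its ratio was at least 64.0-fold below the median member when each library is allowed 3 reads. *Uty* had 38.7 to 41.8 normalised CPM of RNA and 1 Ribo-seq read in each library. The X-linked partners were read in both assays, *Ddx3x* for example with 297 and 302 normalised CPM of footprints. Whether the Ribo-seq and RNA-seq cells differed in karyotype was not tested. Of the 7 Y-linked members 6 carried a low call, and leaving the chromosome out changed the counts given below to 1981 high and 1680 low.

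The first 10 codons show 2 properties of the coding sequences that recur among the results. They were taken from GENCODE M21 on GRCm38, and codons with T in the middle position, which encode the hydrophobic residues Phe, Leu, Ile, Met and Val, are in capitals. The first 4 genes were of high ratio and encode proteins with a hydrophobic stretch near the N terminus. They are *Gpc4* (chrX:52164746-52164775, minus strand), *Hspg2* (chr4:137468862-137468891, plus strand), *Syvn1* (chr19:6047934-6047963, plus strand) and *Hspa5* (chr2:34772322-34772351, plus strand).
Gpc4: ATGgcacgcTTAggcTTGCTCgcgCTCCTC
Hspg2: ATGgggcagcgggcaGTGggctcgTTGCTG
Syvn1: ATGTTCcgcaccgcaGTGATGATGgcggcc
Hspa5: ATGATGaagTTCactGTGGTGgcggcggcg
Next are 3 genes of low ratio, *Zhx1* (chr15:58054819-58054848, minus strand), *Zfp62* (chr11:49215084-49215113, plus strand) and *Mkks* (chr2:136881206-136881235, minus strand), whose first 30 coding bases occur once in the genome.
Zhx1: ATGgcaagcagacgaaaatcaacaacacct
Zfp62: ATGgaggatgaggagtcgtctaaaaagaat
Mkks: ATGtctcggTTAgaagctaagaagccatcg
The last 4 are genes of low ratio whose first 30 coding bases occur several times in the genome, *Ftl1* 8 times (chr7:45459602-45459631, minus strand), *Rps28* 6 times (chr17:33824443-33824472, minus strand), *Rpl13* 5 times (chr8:123102659-123102688, plus strand) and *Tmsb10* 3 times (chr6:72957983-72958012, minus strand).
Ftl1: ATGacctctcagATTcgtcagaattattcc
Rps28: ATGgacacgagtcgcGTGcagcccATCaag
Rpl13: ATGgcgcccagccggaatggcATGATACTG
Tmsb10: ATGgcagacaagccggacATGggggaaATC
Of the 10 codons shown, 6 have T in the middle position in *Gpc4*, 5 in *Syvn1* and *Hspa5* and 4 in *Hspg2*, against 1 in *Zhx1* and *Zfp62* and 2 in *Mkks*. These genes were chosen as examples, and other named genes went the other way. Among genes of low ratio *Apela* has 6 such codons and *Snx25* 5. Among genes of high ratio *Rhox5* has 2, and *Itsn1* and *Lars2* have 3. A footprint from a stretch that occurs more than once cannot be placed uniquely, and only uniquely mapping reads were counted. For this reason the share of 30-base stretches of the coding sequence found once in the genome was computed for each gene, and results are also given for the 10026 members in which it was at least 90%, called uniquely mappable below.

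Genes differed far more in the ratio than replicate libraries did. Values were log2 of the normalised CPM plus 0.25, and the ratio is given relative to the median member, which had 0.468 normalised CPM of footprints per normalised CPM of RNA. The log2 ratio had an SD of 1.04 over the members, its 10th and 90th percentiles, −1.21 and 1.36, lay 5.94-fold apart, and its quartiles lay 2.51-fold apart. The log2 difference between the 2 Ribo-seq libraries had an SD over members of 0.336, and that between RNA-seq replicates 0.199 in the first and 0.225 in the second experiment. Between the 2 RNA-seq experiments it was 0.430. Across genes, which are not independent replicates, the Spearman correlation was 0.993 between the Ribo-seq replicates and 0.875 to 0.889 between a Ribo-seq and an RNA-seq library. With limma, at an adjusted p below 0.01 and a ratio more than 2-fold from the median member, 1981 members were called high (16.7%) and 1686 low (14.2%), and 8176 were not called. In 1977 of the high and 1675 of the low members every Ribo-seq value lay on that side of every RNA-seq value, relative to the median member. Over all 11843 members, called or not, this held for 4421 above and 4279 below. Among the uniquely mappable members 1786 were high and 1081 low, with an SD of 0.982.

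**Figure D1:**
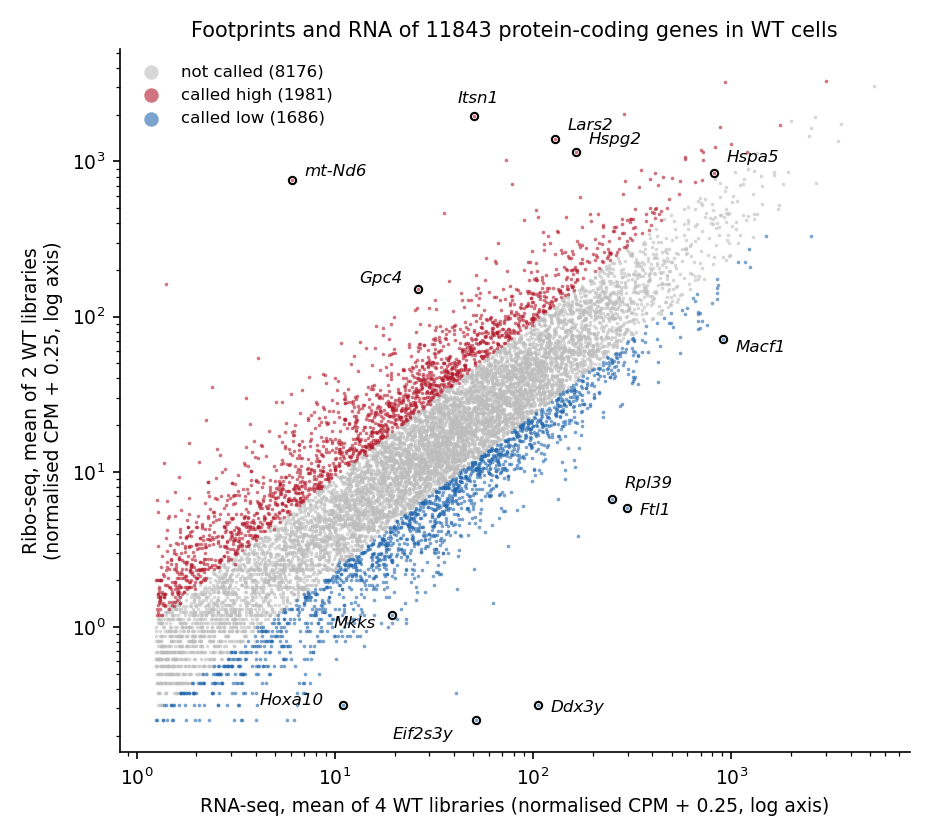
Mean normalised CPM of RNA-seq (4 WT libraries, x axis) and Ribo-seq (2 WT libraries, y axis) for the 11843 members, both with 0.25 added and on log axes, coloured by the call. High calls lie above and low calls below a diagonal band, and *Itsn1*, *mt-Nd6* and *Ddx3y* lie farthest from it among the labelled genes.

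The split into high and low depended on where 0 was set. With each library scaled to its own sum over the members and no centring, 35.0% of the calls were high, against 54.02% with the median member at 0, and with the CPM as deposited 5.07% were. The median member shifted by −0.26 and −1.09 on the log2 scale under these scalings, and every direction in the text is relative to the median member.

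The highest ratios among members of at least 10 CPM belonged to a mixed group of genes. *Itsn1*, an endocytic scaffold gene, had 1908 and 2023 normalised CPM of footprints against 57.64, 48.35, 48.06 and 45.98 of RNA, 83.8-fold above the median member. *Lars2*, the mitochondrial leucyl-tRNA synthetase gene, had 1356 and 1449 of footprints against 30.6 and 38.7 of RNA in the first and 191.2 and 256.3 in the second experiment. The rule that picked both genes required Ribo-seq values above every RNA-seq value relative to the median member. The RNA level of *Lars2* was not the same in the experiments. *Gm42418*, a noncoding gene within a ribosomal RNA repeat, followed it, with 876 and 1379 of RNA in the first and 5127 and 7525 in the second experiment, and 83176 and 83006 of footprints. Whether ribosomal RNA fragments account for the *Lars2* and *Itsn1* reads was not tested. Below the 10 CPM of this rule, *mt-Nd6* had a higher log2 ratio (8.09) than any other member and *Cadps2* the next (7.97, 202 and 125 normalised CPM of footprints against 0.744 to 1.65 of RNA), *Cadps2* being named after its values were seen.

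Several of the next genes encode secreted or membrane proteins. *Hspg2*, the gene of the basement membrane proteoglycan perlecan, had 1118 and 1177 normalised CPM of footprints and 137 to 197 of RNA, 15.0-fold above the median member. *Syvn1*, the ubiquitin ligase of endoplasmic reticulum associated degradation, had 69.2 and 65.5 against 9.12 to 11.8, and *Gpc4*, a glycosylphosphatidylinositol-anchored proteoglycan, 154 and 147 against 20.2 to 32.8. In each of the 3 genes the Ribo-seq values exceeded all RNA-seq values even before the median ratio was taken into account. *Rhox5*, a homeobox gene, had 86.5 and 87.4 against 14.6 to 18.1, *Utf1*, a chromatin-associated gene of pluripotent cells, 107 and 114 against 10.3 to 43.9, and *Ptpn23*, a phosphatase-like gene of endosomal sorting, 92.3 and 105 against 16.9 to 21.5. The *Utf1* RNA values were 10.3 and 17.3 in the first and 28.4 and 43.9 in the second experiment, so its ratio depends on the experiment taken as denominator.

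**Figure D2:**
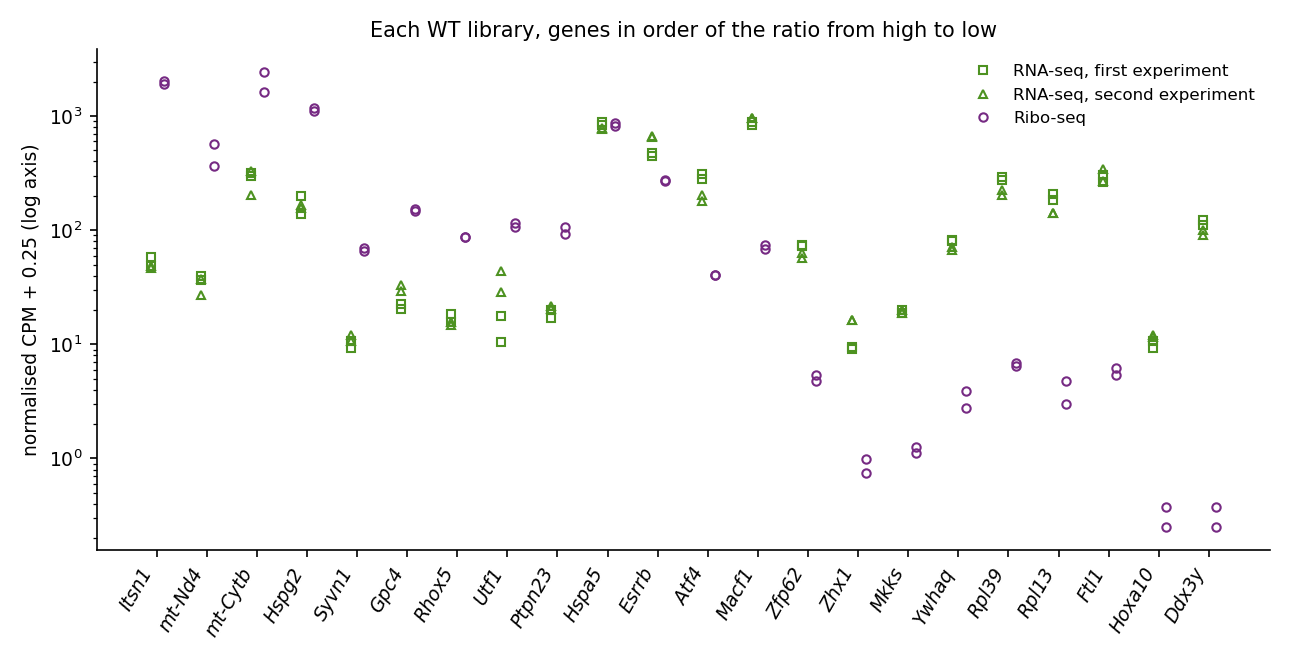
Normalised CPM plus 0.25 (y axis, log) of 22 named genes in every WT library, with RNA-seq of the first experiment as squares, of the second as triangles and Ribo-seq as circles. From *Itsn1* to *Ptpn23* all circles lie above all RNA-seq symbols, and from *Esrrb* to *Ddx3y* below them, while in *Hspa5*, at 2.21-fold above the median member, they overlap.

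Chaperones and folding enzymes of the endoplasmic reticulum were high as a group. Of 25 measured genes 16 were called high and none low, with a median log2 ratio of 1.13, against 16.7% high over all members, and among the 22 uniquely mappable ones 15 were high. *Hspa5*, the lumenal Hsp70 BiP, had 822 and 870 normalised CPM of footprints against 771 to 884 of RNA (log2 ratio 1.14 ± 0.06 SE, limma adjusted p = 2.49e-08). *Pdia3*, a protein disulfide isomerase, had 793 and 785 against 435 to 468, and *P4hb*, another, a log2 ratio of 1.84. *Sec61b*, a subunit of the translocon, had the highest in the list at 2.23, and only 13.7% of its coding stretches were uniquely placed. *Hsp90b1*, the lumenal Hsp90, was not called at 0.82, and *Ssr3*, a translocon-associated subunit, had the lowest at 0.27.

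The encoded protein separated the members in the same direction across the whole table. A hydrophobic stretch was counted wherever 19 residues had a mean Kyte-Doolittle hydropathy above 1.6, a usual mark of transmembrane segments and signal sequences. The 8104 members without one had a median log2 ratio of −0.19, and 9.97% of them were called high and 17.9% low. The median was 0.26 with 1 stretch (2014 members), 0.65 with 2 to 3 (937), 0.86 with 4 to 6 (419) and 1.06 with 7 or more (364), where 53.3% were high and 2.47% low. The 1560 members with a stretch starting within the first 40 residues had a median of 0.79, against −0.10 for the others. Among uniquely mappable members the medians were −0.12 with no stretch and 1.06 with 7 or more. These are descriptions across genes with no test, and the feature was chosen after values were seen.

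**Figure D3:**
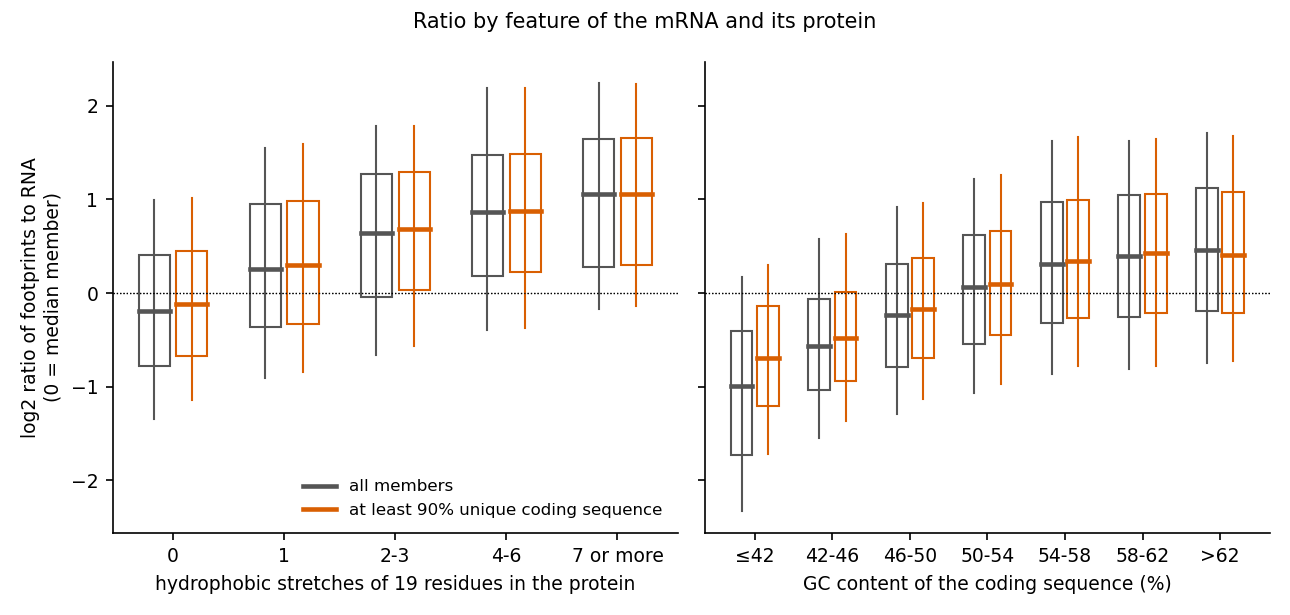
Log2 ratio (y axis, 0 is the median member) by the number of hydrophobic stretches (left) and by coding GC content (right), for all members (grey) and uniquely mappable ones (orange). Thick lines are medians, boxes quartiles and thin lines the 10th to 90th percentiles, and the medians rise from bin to bin except for uniquely mappable members above 62% GC, at 0.41 after 0.43.

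Coding sequences rich in A and T had low ratios. The median log2 ratio was −0.99 in the 533 members with a coding GC content of at most 42%, of which 49.9% were called low, and 0.46 in the 705 members above 62%, of which 6.67% were. Across genes the Spearman correlation was 0.367. In uniquely mappable members the medians at the 2 ends were −0.69 and 0.41. Within each of the 7 bins of GC content the uniquely mappable members with 4 or more hydrophobic stretches had a higher median than those with none, for example 0.40 against −0.59 between 42% and 46% and 1.26 against 0.22 between 58% and 62%. GC content can also alter how well a fragment is amplified, and its part in the ratio was not tested.

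Mitochondrially encoded mRNAs, which are read by ribosomes of the organelle, held the highest ratios of any list. Of 13 such genes 7 passed the CPM minimum, and their median was 4.28. Of these 6 (85.7%) were called high and none low, against 16.7% and 14.2% of all members. Only 3 of the 7 were uniquely mappable, all of them high, with a median of 3.91. In *mt-Nd4* and *mt-Co1* 36.8% and 35.2% of the coding stretches were uniquely placed. *mt-Nd5*, *mt-Nd4* and *mt-Nd2*, subunits of complex I, had log2 ratios of 4.88, 4.80 and 4.28, *mt-Nd5* with 1238 and 805 normalised CPM of footprints against 61.7 to 89.1 of RNA. *mt-Cytb*, the cytochrome b of complex III, was at 3.91. *mt-Nd1* was lower at 1.67, and *mt-Co1*, a subunit of complex IV, was not called at 0.14. The first Ribo-seq library had more footprints than the second in each of these genes, 1499 against 974 in *mt-Nd1* for example. Of 76 nuclear-encoded subunits of the respiratory chain 15 (19.7%) were high, near the 16.7% of all members, and 3 (3.95%) low, against 14.2% (median 0.52), among them *Uqcrq* of complex III at 2.54. *Cycs*, cytochrome c, was the lowest, with 0.2499 and 0 normalised CPM of footprints against 4.63 to 7.55 of RNA, and none of its coding stretches was uniquely placed. Of 76 mitochondrial ribosomal protein genes 14 (18.4%) were high and 2 (2.63%) low (median 0.21, against −0.04 with no filter on low values).

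Genes with near-identical copies made up most of the lowest ratios on the autosomes and chromosome X. Ferritin light chain *Ftl1* had 6.00 and 5.14 normalised CPM of footprints against 264 to 346 of RNA, 23.8-fold below the median member. *Rpl13* had 2.75 and 4.52 against 141 to 207, *Rps28* 1.37 and 1.00 against 43.2 to 82.6, and *Rpl39* 6.25 and 6.65 against 203 to 290. *Tmsb10*, an actin-sequestering thymosin, had 1.37 and 1.63 against 32.03 to 51.87, and *Ywhaq*, a 14-3-3 protein, 2.499 and 3.637 against 66.5 to 81.3. The rule that picked these 6 genes required Ribo-seq values below every RNA-seq value relative to the median member. At most 11.5% of their coding stretches were uniquely placed. Over the members the median log2 ratio was −0.99 where at most 10% of the stretches were unique (259 members, 49.4% called low), −0.74 from 10% to 50%, −0.33 from 50% to 90%, and 0.07 above (10026 members).

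Cytosolic ribosomal protein genes, whose mRNAs carry oligopyrimidine 5′ ends, could therefore hardly be read with these tables. Of 83 genes 37 (44.6%) were called low and 10 (12%) high, against 14.2% and 16.7% of all members, with a median of −0.69, and the range ran from −4.36 in *Rpl13* to 4.98 in *Fau*, which had 43.2 and 27.0 normalised CPM of footprints against 1.49 to 2.74 of RNA. The median share of uniquely placed coding stretches in the list was 3.41%, and 2 of the 83 genes were uniquely mappable. Of 28 other mRNAs known for such 5′ ends 6 (21.4%) were high and 6 (21.4%) low, against 16.7% and 14.2% of all members (median −0.12). *Eef1a1*, the elongation factor, was low at −1.83 with 11.03% unique stretches, and *Eef2* at −0.25 was not called. The 7 uniquely mappable genes of this list had a median of 1.03 with 4 high and none low, among them *Vim*, the intermediate filament vimentin, at 2.02 and *Eif3f* at 1.71. By annotation alone, 267 members whose representative mRNA begins with C and 4 pyrimidines had a median of 0.16, against −0.003 for the others.

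**Figure D4:**
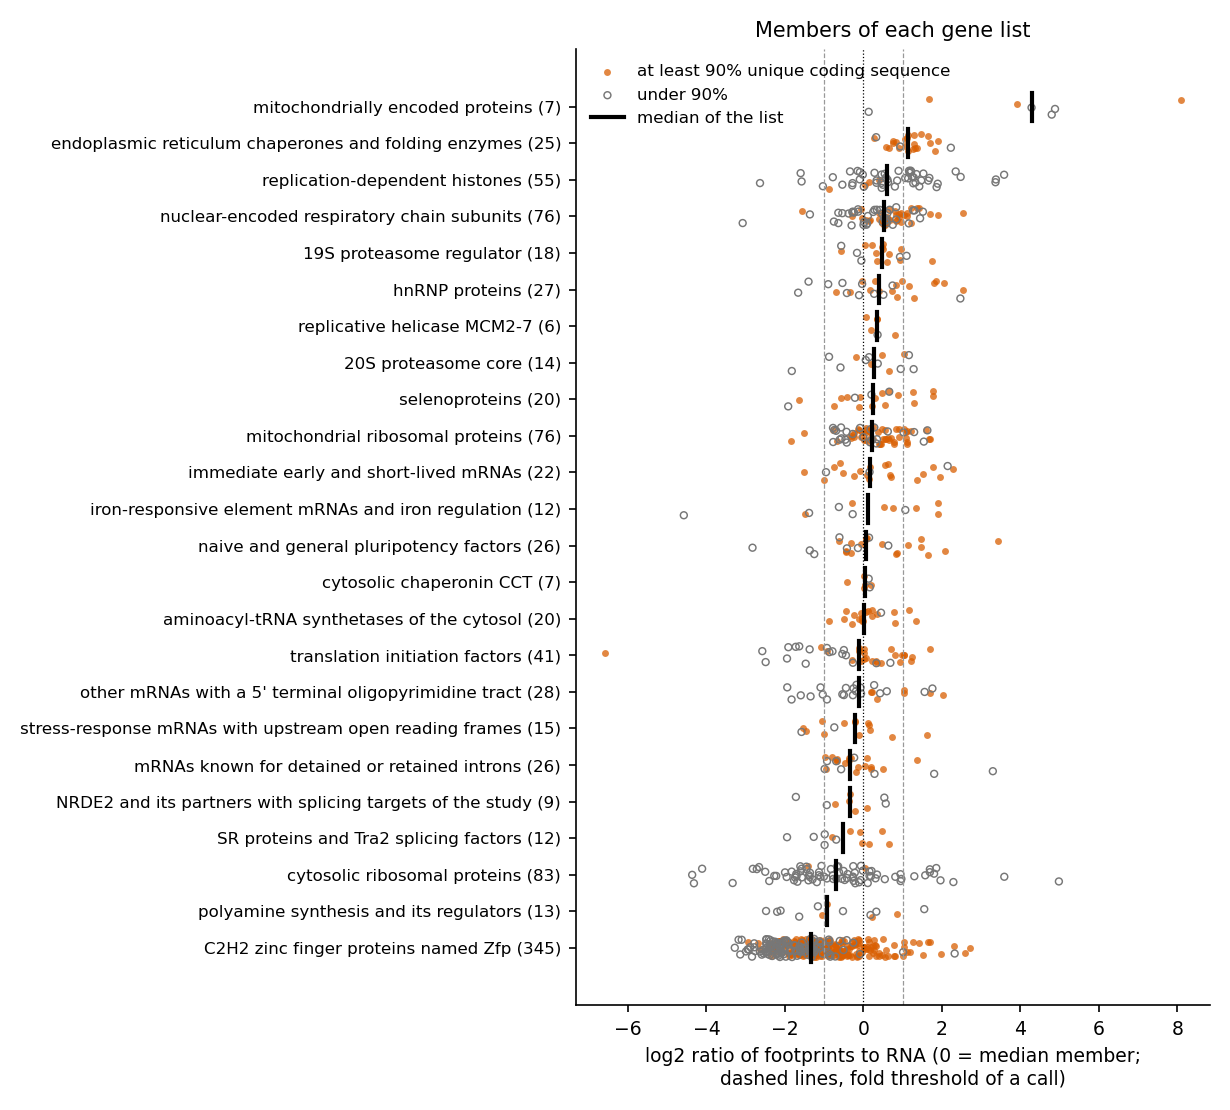
Log2 ratio (x axis, 0 is the median member) of each member of 24 gene lists (rows, ordered by the median, number measured in parentheses), with uniquely mappable members filled and the others open. Mitochondrially encoded genes and endoplasmic reticulum chaperones lie to the right of 0, Zfp genes to the left, and most ribosomal protein and histone genes are open symbols spread over a wide range.

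Among uniquely mappable members of at least 10 CPM outside chromosome Y, a selection added after the values were seen, the lowest ratio belonged to *Hoxa10*, a homeobox gene, with 10.5, 9.12, 11.9 and 11.3 normalised CPM of RNA and 1 Ribo-seq read in both libraries together, 80.1-fold below the median member with a 95% Poisson interval of 14.4 to 3163. *Mkks*, a chaperonin-like gene of the ciliary BBSome pathway, had 0.875 and 1.00 of footprints against 18.5 to 19.8 of RNA (log2 ratio −2.93 ± 0.14 SE), and its representative mRNA carries 18 AUG triplets before the coding sequence. *Macf1*, a very large cytoskeletal linker gene, had 74.3 and 68.4 against 827 to 964. *Snx25*, *Ppp1r9a* and *Sgk3*, encoding a sorting nexin, a neurabin and a kinase, had log2 ratios of −2.89, −2.86 and −2.46. *Apela*, which encodes a peptide hormone of 54 residues with a hydrophobic stretch, was at −2.46 as well. The rule that picked these genes required that Ribo-seq and RNA-seq libraries did not overlap.

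Zinc finger transcription factors were low as a family. Of 345 genes named Zfp that were measured 219 (63.5%) were called low and 16 high, with a median log2 ratio of −1.33, against 14.2% low over all members. *Zfp62* had 4.498 and 5.142 normalised CPM of footprints against 56.6 to 74.2 of RNA (−2.62), *Zfp948* 0.750 and 0.502 against 9.83 to 13.5 (−2.68), and the zinc finger and homeobox gene *Zhx1*, outside the list by its name, 0.750 and 0.502 against 8.84 to 16.2 (−2.74). *Zfp960* had the lowest value in the family, −3.28, with 13.5% unique stretches. *Zfp771* had the highest, 2.71, with 12.6 and 12.3 against 2.29 to 7.41. Coding GC content in the family had a median of 46.3% and quartiles of 40.7% and 53.8%, and 229 of the 345 genes were uniquely mappable. Of these 229, at a median GC content of 49.8%, 117 (51.1%) were low with a median log2 ratio of −1.08. Of the 4882 other uniquely mappable members within those quartiles, at a median GC content of 49.1%, 635 (13%) were low with a median of −0.14. The 229 Zfp genes were not limited to those quartiles.

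Ratios fell with the number of AUG triplets upstream of the coding sequence in the representative mRNA. The median was 0.13 with none (5763 members), −0.07 with 1, −0.15 with 2, −0.13 with 3 to 5 and −0.31 with 6 or more (670 members). In each of the 7 bins of GC content the median with 6 or more was below that with none, −1.52 against −0.76 at the lowest and 0.09 against 0.64 at the highest GC content. 5′ untranslated regions of at most 50 bases had a median of 0.13 and those over 400 bases −0.11. A purine at −3 with G at +4, the usual strong start context, gave 0.02, and neither gave −0.10. The median fell with the length of the 3′ untranslated region from 0.29 at up to 300 bases to −0.33 above 4000 bases, and rose with the coding share of the mRNA from −0.36 at up to 20% to 0.19 above 80%. RNA-seq reads of untranslated regions count in the denominator while footprints fall mostly in the coding sequence. When the ratio was divided by the coding share, the direction for the 5′ untranslated length, the 3′ untranslated length and the coding share turned over. The difference between extreme bins became smaller without turning for upstream AUG triplets (from −0.44 to −0.122) and start context (from 0.119 to 0.0247). The division by itself raises the ratio most where the coding share is small. These changes therefore cannot tell how the features bear on the ratio.

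Of 15 measured stress-response mRNAs known for upstream open reading frames 5 (33.3%) were low and 1 (6.67%) high, against 14.2% and 16.7% of all members, with a median of −0.23. *Atf4*, the transcription factor of the integrated stress response, had 40.4 and 40.4 normalised CPM of footprints against 180 to 310 of RNA, a log2 ratio of −1.45 ± 0.07 SE. *Ppp1r15a* (GADD34), which directs a phosphatase to eIF2α, was at −1.58 with 7 upstream AUG triplets, and *Cebpg*, a bZIP partner, at −1.54. *Ppp1r15b*, the constitutive counterpart of *Ppp1r15a*, was not called at 0.73. *Slc7a1*, a cationic amino acid transporter, was high at 1.62, and its protein holds 11 hydrophobic stretches. *Ddit3* (CHOP) had 2.499 and 2.383 of footprints against 8.86 and 7.52 of RNA in the first and 2.54 and 3.30 in the second experiment. Of 41 initiation factors 5 (12.2%) were high and 10 (24.4%) low, with a median of −0.10, while among the 24 uniquely mappable ones 5 were high and 2 low, with a median of 0.27. In this list *Eif4e*, the cap-binding protein, was at −1.47 with 13.8% unique stretches.

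Of 13 polyamine genes measured 6 (46.2%) were low and 1 (7.69%) high, against 14.2% and 16.7% of all members, with a median of −0.93 that was −0.35 in the 4 uniquely mappable ones and 0.17 over 5 genes when uniqueness was taken over the whole mRNA. *Odc1*, ornithine decarboxylase, had 22.6 and 25.5 normalised CPM of footprints against 187 to 277 of RNA (−2.11), and its first 30 coding bases occur 6 times in the genome. *Amd1* was at −2.48 and *Srm*, spermidine synthase, was high at 1.55. *Azin1*, the antizyme inhibitor with uniquely placed sequence, was at −0.93 and not called. Of 12 iron-related mRNAs 4 (33.3%) were high and 3 (25%) low, with a median of 0.12, and of the 7 uniquely mappable ones 3 were high and 1 low, with a median of 0.75. *Tfrc*, the transferrin receptor, was at 1.35, *Slc11a2*, an iron transporter, had 72.5 and 68.2 normalised CPM of footprints against 36.6 to 42.5 of RNA, and *Fth1*, ferritin heavy chain, was at −0.62 without a call. Of 20 selenoprotein mRNAs 4 (20%) were high and 2 (10%) low, near the shares of all members, *Gpx1* being at 0.87 and *Gpx4* at 0.21 with no call.

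Of 26 pluripotency factors measured 6 (23.1%) were high and 3 (11.5%) low, against 16.7% and 14.2% of all members (median 0.07, or −0.06 with the second RNA-seq experiment alone). The 18 uniquely mappable ones had a median of 0.28, with 6 high and none low. *Utf1* at 3.43 and the Krüppel-like factor gene *Klf2* at 2.07 (251 and 257 normalised CPM of footprints against 115 to 149 of RNA) were the highest. *Pou5f1*, *Sox2*, *Nanog* and *Esrrb*, core transcription factors of these cells, were not called at 0.15, 0.47, 0.64 and 0.07. *Zfp42* (REX1) was low at −1.25 with 69.0% unique stretches, and *Dppa2* at −2.82 with 8.44%. Of 22 immediate early and short-lived mRNAs 5 (22.7%) were high and 2 (9.09%) low, *Mycn* being at 1.51 and *Ier3* at 2.29, while *Jun* was not called at −0.07. *Myc* was called at 1.95, but its RNA was 2.11 and 4.36 normalised CPM in the first and 11.5 and 23.6 in the second experiment, against 13.6 and 12.8 of footprints.

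Of 27 hnRNP genes, which package and process nuclear RNA, 7 (25.9%) were high and 2 (7.41%) low, against 16.7% and 14.2% of all members (median 0.40). Among the 16 uniquely mappable ones 6 were high and none low, with a median of 0.85. Examples were *Pcbp1*, a poly(C)-binding protein, at 2.53 and *Hnrnpk* at −1.40 with 13.8% unique stretches. Of 12 SR protein and Tra2 genes none was high and 2 (16.7%) were low, against 14.2% of all members, *Srsf3* at −1.94 with 6.01% unique stretches and *Tra2b* at −1.26, while *Srsf2* was not called at 0.64. The median was −0.51 over the 12 genes and −0.04 over the 7 uniquely mappable ones, none of which was low. Of 26 mRNAs known for introns that stay unspliced in the nucleus 3 (11.5%) were high and none low, with a median of −0.33. Over all members 16.7% were high and 14.2% low. *Srrm1* and *Srrm2*, which encode splicing coactivators, were high at 1.804 and 1.372. The kinase mRNAs *Clk1* and *Clk4* were at −0.37 and −0.20 and *Ogt*, the O-GlcNAc transferase, at 0.10. RNA-seq of total RNA counts nuclear and cytoplasmic transcripts alike, and their shares were not measured here. Among 9 genes of NRDE2, its partners and splicing targets of the study, *Nrde2* had 11.7 and 13.4 normalised CPM of footprints against 39.5 to 51.6 of RNA (−0.73, not called). *Ccdc174* had 3.498 and 3.888 against 23.83 to 31.97 (−1.72, low), with 69.3% unique stretches. *Dnmt1*, *Tti1*, *Cdk2* and *Mtrex* were at −0.22, −0.33, 0.10 and −0.37 and not called.

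Replication-dependent histones, whose mRNAs end in a stem-loop in place of a poly(A) tail, had 23 high (41.8%) and 4 low (7.27%) calls among 55 measured genes, against 16.7% and 14.2% of all members, with a median of 0.61, or −0.04 over the 10 genes whose whole mRNA was uniquely placed. The extremes were sister genes of H2B, *Hist1h2bn* at 3.59 (22.1 and 17.9 normalised CPM of footprints against 2.23 to 5.32 of RNA) and *Hist1h2bp* at −2.63 (2.00 and 2.01 against 19.3 to 51.0). Of their coding stretches 11.9% and 15.1% were uniquely placed, and 4 of the 55 genes were uniquely mappable, so footprints cannot be divided reliably among the copies.

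Subunits of complexes that assemble in equal numbers were compared by footprints per kb of coding sequence. In the chaperonin CCT, which folds actin and tubulin, footprints of the 7 measured subunits spanned 1.68-fold, from 202 normalised CPM per kb in *Tcp1* to 339 in *Cct7*, with a coefficient of variation (CV) of 14.9%, and RNA spanned 1.33-fold. In the replicative helicase MCM2-7 footprints of the 6 subunits spanned 2.29-fold, from *Mcm4* at 100.0 to *Mcm3* at 229, and RNA 2.44-fold. In the 20S core of the proteasome footprints spanned 75.1-fold over 14 subunits, from *Psma3* at 5.95, with 7.98% unique stretches, to *Psmb6* at 447. Over the 5 uniquely mappable subunits the span was 2.42-fold for footprints and 1.18-fold for RNA. In the 19S regulator the spans were 16.7-fold over all 18 subunits, with *Adrm1* lowest, and 2.68-fold over the 13 uniquely mappable ones. Spans differed between the 2 Ribo-seq libraries by little, 1.58 and 1.78 in CCT and 2.23 and 2.35 in MCM2-7.

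**Figure D5:**
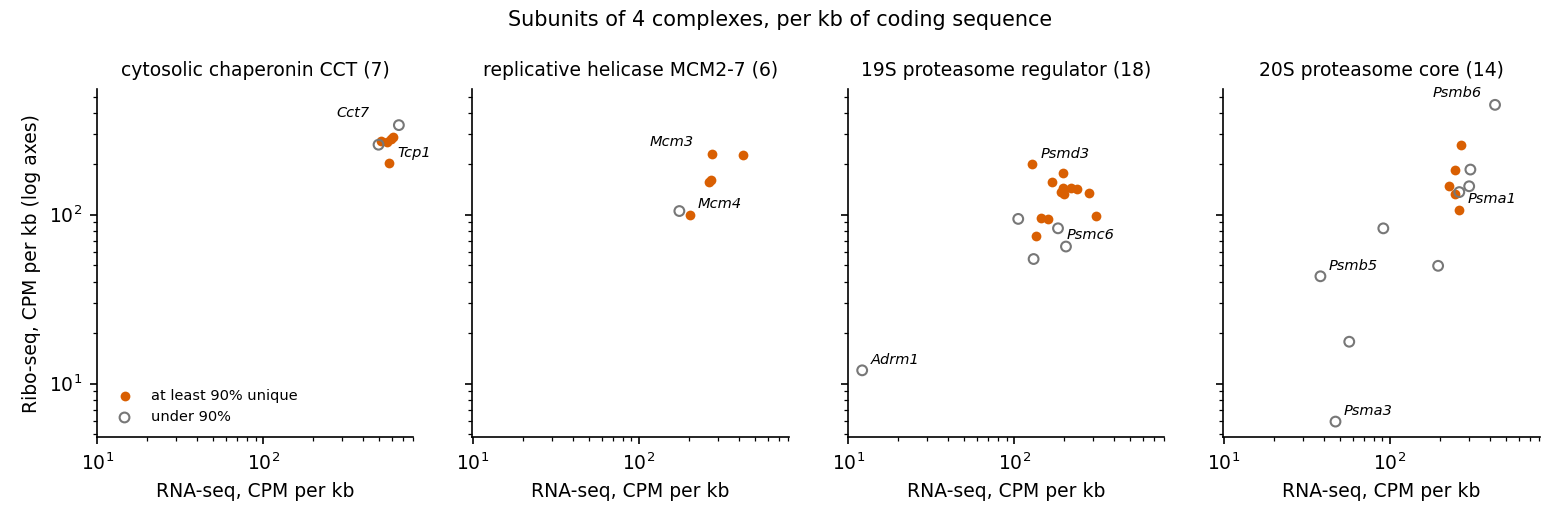
Normalised CPM per kb of coding sequence in RNA-seq (x axis) and Ribo-seq (y axis), both log, for each subunit of 4 complexes, with uniquely mappable subunits filled. Filled points of a complex lie within 2.68-fold of one another on the y axis. The lowest points of the 20S and 19S panels, *Psma3* and *Adrm1*, are open, as are the other points below the filled ones.

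The same ratio was measured in the *Nrde2*-KO libraries, which share no library with WT. By their labels these were cells treated for 4 days with 100 nM 4-hydroxytamoxifen, which activates Cre-ERT2 in the conditional line. There were again 2 Ribo-seq and 4 RNA-seq libraries. In *Nrde2*-KO 2469 members were called high (20.8%) and 1960 low (16.5%). Of the 1981 members high in WT 1694 (85.5%) were also called high in *Nrde2*-KO and none low, and of the 1686 low in WT 1351 (80.1%) were also low and 1 was high. The log2 ratios correlated with a Spearman coefficient of 0.910 across members, and *Itsn1*, *Hspg2*, *Gpc4* and *Mkks* were at 6.52, 3.62, 3.57 and −3.35. The median was −0.24 with no hydrophobic stretch and 1.20 with 4 or more, against −0.19 and 0.96 in WT. Endoplasmic reticulum chaperones had a median of 1.62 with 23 of 25 high, and respiratory chain subunits 1.02 with 41 of 76 high. In other lists more genes were low than in WT, 10 of 26 against none in the mRNAs known for unspliced introns (medians −0.77 and −0.33) and 6 of 12 against 2 in the SR protein and Tra2 genes, and the mitochondrially encoded genes had a median of 3.57 against 4.28. The difference between WT and *Nrde2*-KO in these lists was not tested.

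The 2 WT RNA-seq experiments that form the denominator differed from one another in few members. By the same fit 133 members (1.12%) were higher and 147 (1.24%) lower in the second experiment, and 123 of these 280 were among the 3667 members called in the ratio. Of the 3852 calls with the first experiment alone 2834 were made in the same direction with the second alone, which gave 3587. Over all 12777 genes fitted, noncoding ones included, 2108 (16.5%) were high and 2000 (15.7%) low.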

How the data were processed

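The values deposited by the authors were CPM per gene, reads scaled to a common library total. Per the study's methods, Ribo-seq reads were trimmed and duplicate reads collapsed, a step not stated for RNA-seq, and uniquely mapping reads on the correct strand were counted per gene with featureCounts. STAR 2.7.0a and 2.7.3a are named in the submitters' processing notes. Footprints were released with Benzonase from a detergent lysate, and the band above a 35-nt marker was taken. Every value was a whole multiple of the CPM of 1 read (100% of values, largest deviation 0.000365 reads over all libraries).

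Each library was divided by its median-of-ratios factor within its assay, and log2(CPM + 0.25) was fitted with limma 3.58.1 over 12777 genes of at least 1 CPM, the median member being set to 0. A gene was called where its log2 ratio lay beyond 1 in either direction and its p, adjusted by Benjamini and Hochberg's method, was below 0.01. On simulated data for this comparison, over 12777 genes, 34.3% of 67 genes changed 2-fold were recovered, and 97% of 67 changed 4-fold and of 66 changed 8-fold. A 2-fold change lies on the threshold of a call, which by itself limits its recovery. The simulation used a dispersion of 0.01 and the same means for both RNA-seq experiments. Recovery with the measured difference between the experiments (SD 0.430) was therefore not tested. edgeR 4.0.16 and DESeq2 1.42.0 on the recovered reads, other constants, filters, scalings and left-out libraries were alternatives. Gene models were GENCODE M21 on GRCm38 (55154 of 55335 identifiers matched, 181 not), while the study used another release. One representative coding transcript per gene gave sequence features for 11838 members.

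Named genes were the 10 highest and 10 lowest called genes of at least 10 CPM whose libraries did not overlap, clones and predicted genes left out, with the extremes and fixed examples of each list. The same rule among uniquely mappable genes was added after seeing the data. The members and lists were chosen with earlier results of these data known. Poisson intervals, and the limit of 3 reads that a count of 0 allows, cover counting error only. Values of 2 list members are not reported here.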

Additional observations from a re-analysis of the deposited data

Results flagged for a closer look

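By limma's test of the difference between the 2 WT RNA-seq experiments, which called 280 members, 7 of the named genes had a log2 ratio that differed with the experiment taken as the denominator. The value is the log2 ratio against the first minus that against the second experiment. It was −1.416 for *Ddit3*, whose RNA was lower in the second experiment. It was 1.1 for *Hist1h2bp*, 1.258 for *Mat2a*, 1.39 for *Utf1*, 1.452 for *Dppa2*, 2.347 for *Myc* and 2.68 for *Lars2*, whose RNA was higher in the second. Both experiments are of untreated WT cells, and the cause was not tested.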

How the results depend on the processing

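With CPM as deposited 341 members were high and 6381 low. Scaling to the sum over the members gave 2595 low calls, and keeping uniquely mappable members gave 1081. The SD of the log2 ratio was 1.13 with DESeq2, 1.16 with edgeR and 1.02 with untreated WT RNA-seq of 2 other edited lines. By their labels these were a conditional *Mtrex* knockout line and a *Ccdc174* fusion line. The SD was 1.09 with a constant of 0.1, 0.942 with 1, and 1.20 after division by the coding share. It was 1.08 with the first RNA-seq experiment, with no filter and with the sum scaling, and 0.995 from 10 CPM. It was 0.982 with unique coding and 0.992 with unique mRNA sequence, and 1.04 to 1.06 leaving out 1 library. The number of lists above the median member fell from 18 to 11 with no filter. Between the highest and lowest bins, division by the coding share gave median differences of 0.242 for the 5′ untranslated length, −0.122 for upstream AUG, −1.35 for coding length, −2.11 for coding share, 0.0247 for start context and 1.28 for the 3′ untranslated length. Unique coding sequence gave −0.399 for upstream AUG, −0.0592 for coding length and 0.2497 for the pyrimidine 5′ end, and the longest coding sequence −0.477 for upstream AUG and 0.122 for the pyrimidine 5′ end. Per kb of exon the footprint span was 2.55-fold in MCM2-7 and 250.2-fold in the 20S core. edgeR called 447 members between the RNA-seq experiments. The causes were not tested. With the replicate block 1983 members were high and 1689 low. Deviations of same-numbered libraries correlated at 0.00586 and 0.0023 between Ribo-seq and RNA-seq, and at 0.343 between the 2 RNA-seq experiments. With 2 libraries per group these values cannot settle whether same-numbered libraries were paired. Leaving out 1 library gave 1968 to 2021 high and 1631 to 1792 low calls. Of the log2 ratios of named genes under the alternatives 2304 kept direction and call, 65 gained and 51 lost the call, and 72, of 29 genes, took the opposite sign, 71 of them in genes not called and 1 in a gene called high, *Dab2*. With CPM as deposited they were *Cct4* −0.91, *Cdk2* −0.997, *Dab2* −0.0745, *Ddit3* −0.94, *Eif4a3* −0.52, *Eif4g1* −0.76, *Esrrb* −1.02, *Gpx1* −0.22, *Gpx4* −0.89, *Hsp90b1* −0.27, *Mcm3* −0.28, *Mcm4* −1.02, *Nanog* −0.46, *Ogt* −0.99, *Pou5f1* −0.95, *Ppp1r15b* −0.37, *Rps6* −0.15, *Selenow* −0.63, *Sox2* −0.63, *Srsf2* −0.45, *Ssr3* −0.83 and *mt-Co1* −0.96. With WT RNA-seq of the conditional *Mtrex* and *Ccdc174* fusion lines they were *Esrrb* −0.0782, *Id1* 0.47, *Ifrd1* 0.0907, *Klf4* 0.0166 and *Mtrex* 0.22. With a constant of 1 they were *Cdk2* −0.0181, *Esrrb* −0.0516, *Jun* 0.0445, *Mcm4* −0.0511 and *Ogt* −0.0194. After division by the coding share they were *Cct4* −0.24, *Ddit3* −0.0708, *Eif4a3* −0.18, *Eif4g1* −0.47, *Gpx4* −0.14, *Ifrd1* 0.0778, *Jun* 0.55, *Mcm4* −0.50, *Ogt* −0.16, *Pou5f1* −0.53 and *mt-Co1* −0.91. With the first RNA-seq experiment alone they were *Clk4* 0.0334, *Ddit3* −0.54, *Ifrd1* 0.0257, *Mat2a* 0.40 and *mt-Co1* −0.25. With no filter they were *Cct4* −0.0652, *Cdk2* −0.15, *Ddit3* −0.0893, *Esrrb* −0.18, *Gpx4* −0.0423, *Mcm4* −0.18, *Ogt* −0.15, *Pou5f1* −0.10 and *mt-Co1* −0.11. With the second experiment alone they were *Esrrb* −0.19 and *Mcm4* −0.00301. With the sum scaling they were *Cct4* −0.0438, *Cdk2* −0.13, *Ddit3* −0.13, *Esrrb* −0.16, *Gpx4* −0.027, *Mcm4* −0.16, *Ogt* −0.13, *Pou5f1* −0.0817 and *mt-Co1* −0.0912. Leaving out 1 library gave −0.15 to 0.00264 for *Jun*, −0.0373 to 0.17 for *Mcm4* and −0.13 to 0.40 for *mt-Co1*. Leaving out chromosome Y, unique mRNA sequence, and unique coding sequence for the SD, the bins and the *Nrde2*-KO counts were chosen after seeing the data. Precision was limited by Ribo-seq depth, 1 read being worth 0.123 or 0.128 CPM.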

Other observations

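Noncoding genes fitted beside the members lay mostly below the median member. Of 165 lincRNA genes 69 (41.8%) were called low and 3 (1.82%) high, against 15.7% and 16.5% of all genes fitted, with a median log2 ratio of −0.85, and of 82 antisense genes 27 (32.9%) were low and 3 (3.66%) high (−0.69). *Rn7sk*, the 7SK RNA that holds the elongation factor P-TEFb, had 99.1 and 91.9 normalised CPM in Ribo-seq against 5765 to 8190 in RNA-seq (−5.12), and *Kcnq1ot1*, an imprinted antisense RNA, 7.62 and 5.27 against 91.3 to 133 (−2.98). The snoRNA hosts *Gas5* and *Snhg1* were low at −1.54 and −1.298. *Malat1*, an abundant nuclear RNA, was not called at −0.39 with 703 and 583 normalised CPM in Ribo-seq, and *Meg3* was high at 1.12. Of 57 snoRNA genes 41 (71.9%) were high, against 16.5% of all genes fitted, with a median of 2.32. Reads in Ribo-seq libraries can come from fragments held by proteins other than ribosomes, and their share was not measured here.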
